A study of Mus musculus with 6 samples.

Results

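Collagen chains were taken as every gene of the deposited table whose symbol is Col, a type number, a and a chain number, which gave 44 of 20170 genes. They comprised 11 fibrillar chains, 8 chains of basement membrane collagens (types IV, XV and XVIII) and 25 others, among them the type VI chains, the fibril-associated (FACIT) chains, the short network-forming types VIII and X and the transmembrane collagens. RNA was sequenced from colon tissue of wild-type C57BL/6J mice in a colitis-associated cancer model. All 6 samples came from mice given the mutagen azoxymethane (AOM, 10 mg/kg, into the peritoneum) and then dextran sulfate sodium (DSS, a colon irritant, 2% in the drinking water) in 3 rounds. The 3 control samples had AOM/DSS alone, and the 3 stressed samples came from AOM/DSS mice that were restrained daily, 3 to 4 hours at a time, inside ventilated tubes of 50 mL. The labels used here give neither age nor position along the colon, and do not state that each sample is a separate mouse, so p-values speak only of the variation among these 6 samples. Values by sample follow the order of replicates 1, 2 and 3 throughout.

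Collagens are trimers of chains that wind into a triple helix. Fibrillar collagens (types I, III and V in most soft tissues) form the fibrils of the submucosa and are made mainly by fibroblasts. Type IV collagen forms the sheet-like network of basement membranes under epithelium and around vessels, muscle cells and nerves, and types XV and XVIII are proteoglycans attached to these membranes. The remaining families link fibrils to each other, to basement membranes or to cells. In tumours of the colon, collagen-rich stroma is a well-known feature, and the comparison here asks how the chains differ between restrained and unrestrained AOM/DSS mice.

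Total counts ran from 27160547 to 33017500 per sample, and 15890 genes passed the low-count filter. A gene without any count could still have had 3, which is 0.0909 to 0.110 CPM (counts scaled to library size), counting error only. The labels name the cell type as colorectal cancer cell, but markers of the whole colon wall were measured: summed CPM was 10938 to 18280 for 9 colon epithelial markers, 2684 to 8173 for 11 smooth muscle markers and 578 to 952 for 10 fibroblast markers. Control replicate 3 held 3040 CPM of 10 squamous epithelium markers, where the other 5 samples held 6.67 to 80.0. Control replicate 1 had the lowest CPM of 16 of the 37 tested collagen chains. In bulk tissue, fewer cells of a type and less RNA per cell cannot be told apart.

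Fibrillar chains were the most abundant collagens in every sample. On the length-scaled FPKM scale (fragments scaled to gene length and library size, as deposited by the authors), fibrillar chains made up 55.2 ± 2.51% of the summed collagen signal in controls and 56.6 ± 3.08% in stressed samples (SD, n = 3 each). Basement membrane chains took 19.3 ± 1.15% and 22.0 ± 1.17%, and the other chains 25.5 ± 2.80% and 21.4 ± 1.98%. Col17a1, counted among the other chains, gave 10.4 of 345 summed collagen FPKM in control replicate 3, the library with squamous markers. It was at 0.03 to 1.49 FPKM in the remaining samples. By sample the basement membrane share was 19.8%, 20.2% and 18.0% for controls, against 22.2%, 20.8% and 23.1% under restraint, so the groups did not overlap, and this was not tested. The fibrillar share and the share of the other chains overlapped between groups. Col3a1, the sole chain of type III collagen, was highest at a mean of 109 FPKM over the 6 samples. It was followed by Col1a2 at 61.3 FPKM, Col4a1 at 38.7, Col1a1 at 35.6, Col6a1 at 29.8, Col4a2 at 27.3 and Col6a2 at 20.1. These 7 chains held 75.2% to 79.1% of the summed collagen FPKM of a sample. A mean of at least 5 FPKM was reached by 14 chains, 10 lay between 1 and 5 FPKM, and 20 lay below 1 FPKM.

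**Figure D1:**
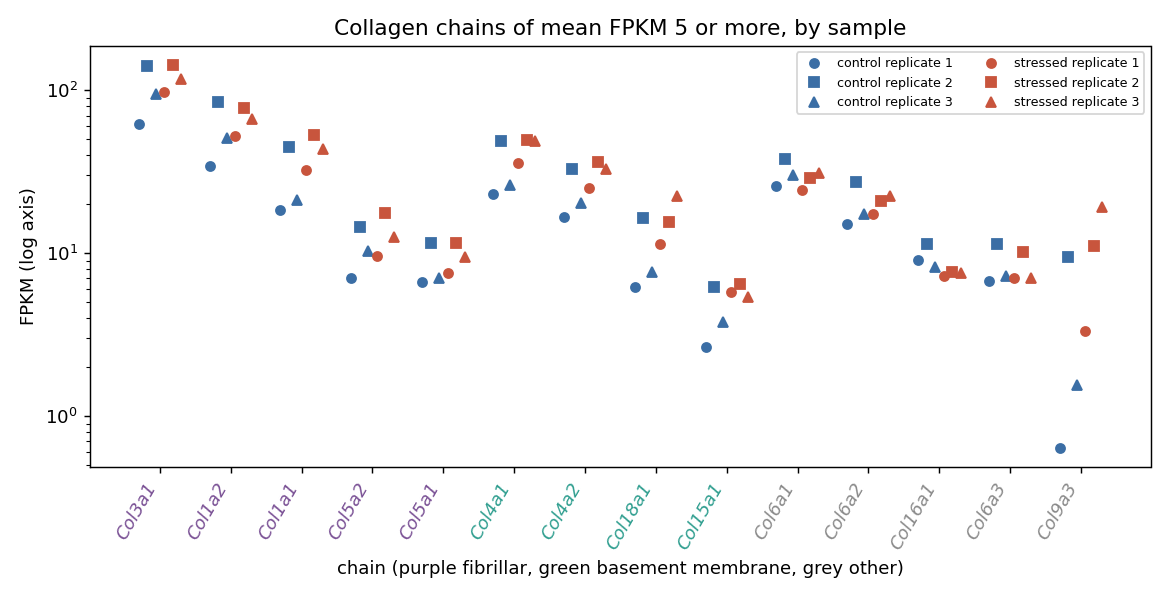
FPKM (log axis) of the 14 collagen chains with a mean of at least 5 FPKM, one point per sample, ordered by class and mean level. Control replicate 1 (blue circles) gave the lowest point of most chains, and the points of the groups overlap for all but Col16a1.

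The low-count filter left 37 chains, 10 fibrillar, 7 basement membrane and 20 other. The 7 chains that did not pass were Col2a1, Col4a4, Col6a6, Col9a1, Col10a1, Col19a1 and Col26a1, and none had more than 50 counts in a sample. Among them were Col2a1 and Col9a1, chains of cartilage collagens. Col2a1 had 0, 0 and 4 counts for controls, against 10, 4 and 27 under restraint. Col9a1 had 0, 2 and 9, against 10, 30 and 50. With no low-count filter both were higher in stressed samples at an unadjusted p under 0.05, with log2 fold changes of 3.21 ± 1.35 (edgeR adjusted p = 0.354) and 2.96 ± 1.08 (adjusted p = 0.317). Col9a1 was also higher at that threshold without control replicate 1, without control replicate 3 and without stressed replicate 1. It passed the filter there only through its counts in stressed samples, so these fits add no support. Counts of the other 5 ran from 0 to 13 per sample. Of these Col4a4 was tested and higher at that threshold without stressed replicate 1, with 4, 1 and 2 counts for controls, against 11 and 11. It too passed the filter only through the stressed samples.

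None of the 37 tested chains passed an adjusted p of 0.05 in edgeR's quasi-likelihood test, where 0% of all genes tested did, and the smallest adjusted p of a chain was 0.235. Col4a5, Col25a1, Col16a1, Col27a1, Col28a1 and Col4a6 had unadjusted p-values under 0.05. These 6 are 16.2% of the chains tested, against 16.6% of all genes, so the chains did not exceed the background. All 6 were lower in stressed samples. With no low-count filter the count was 8, of which 2 (Col2a1 and Col9a1) were higher. In DESeq2 the count was 7, of which 1 (Col9a2) was higher. Without stressed replicate 1 it was 7 in edgeR, with 4 higher (Col4a4, Col9a1, Col9a2 and Col23a1) and 3 lower. In the main test 8.82% of all genes were lower and 7.82% higher at this threshold. DESeq2 called Col4a5 alone, 1 of the 36 chains to which it gave an adjusted p (2.78%), against 5.16% of all genes, and limma-voom called 0 after adjustment. Controls and stressed samples did not overlap for 5 chains (13.5%), against 23.8% of all genes. All 5 were lower in stressed samples, where 11.2% of all genes were lower without overlap and 12.5% higher without overlap. The count at an unadjusted p under 0.05 rested on single libraries, being 12 without control replicate 2 and 3 (Col25a1, Col27a1 and Col4a5) without stressed replicate 3. The 12 were 8 higher chains (Col1a1, Col1a2, Col4a1, Col4a2, Col15a1, Col18a1, Col6a4 and Col9a3) and 4 lower chains (Col4a5, Col11a1, Col25a1 and Col28a1).

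By class, the median log2 fold change (stressed minus control) was 0.16 for the 10 fibrillar chains, 0.39 for the 7 basement membrane chains and -0.05 for the 20 others, beside -0.015 over all genes tested. Of the fibrillar chains 6 had a positive and 4 a negative value. The basement membrane chains divided into 5 positive and 2 negative values, and the others into 9 and 11. Leaving out single samples moved the fibrillar median between -0.06 and 0.37 and the basement membrane median between 0.22 and 0.69. The abundant chains of both classes lay on the positive side and the 6 chains of small p on the negative side, as the plot of fold changes shows.

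**Figure D2:**
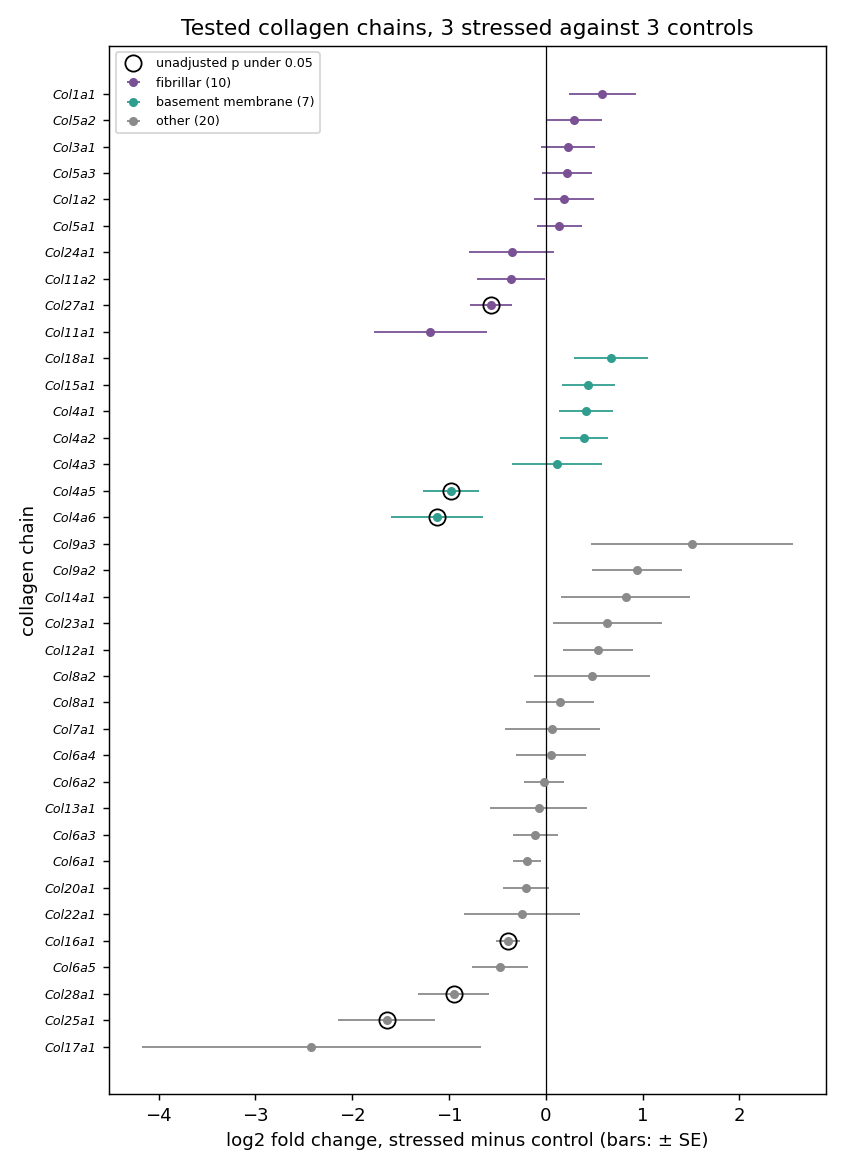
Log2 fold change of the 37 tested chains (stressed minus control, edgeR, bars ± SE), coloured by class, with open rings around the 6 chains at an unadjusted p under 0.05. All 6 ringed chains lie left of 0, where Col4a5 and Col4a6 stand apart from the other 5 basement membrane chains, which lie right of 0.

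Type I and type III collagen, the main fibrils of connective tissue, overlapped between the groups. Col1a1 was measured at 92.6, 206 and 99.7 CPM for controls, against 152, 251 and 194 CPM under restraint. Control replicate 2 thus lay within the stressed range while the other controls lay below it. The log2 fold change of Col1a1 was 0.58 ± 0.34 (SE, edgeR adjusted p = 0.408). Without control replicate 2 it was 1.05, and without control replicate 1 it was 0.38. Its partner Col1a2 was at 188, 429.8 and 262 CPM for controls, against 272, 402 and 327 CPM under restraint. The highest Col1a2 value was a control, and the log2 fold change was 0.19 ± 0.31 (adjusted p = 0.770). Col3a1 was at 368, 768 and 530.2 CPM for controls, against 543, 794 and 618 CPM under restraint, with a log2 fold change of 0.23 ± 0.28 (adjusted p = 0.684).

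Of the minor fibrillar chains, 1 had an unadjusted p under 0.05. Type V collagen, which starts and thins type I fibrils, had log2 fold changes of 0.14 ± 0.23 for Col5a1, 0.29 ± 0.29 for Col5a2 and 0.22 ± 0.26 for Col5a3. Col5a2 ran from 49.7 to 93.7 CPM in controls and from 64.0 to 117 CPM in stressed samples, so the groups overlapped. The type XI chains, partners of type II in cartilage, were low, at 1.20 ± 0.529 and 0.525 ± 0.288 CPM for Col11a1 and 7.19 ± 2.26 and 5.61 ± 1.72 CPM for Col11a2 (controls, then stressed, SD, n = 3 each). Col24a1 had a log2 fold change of -0.35 ± 0.44. Col27a1, a fibrillar chain best known from cartilage, was that chain, at 23.5, 35.0 and 22.5 CPM for controls, against 16.3, 17.1 and 21.4 CPM under restraint. No stressed value reached a control, though control replicate 3 and stressed replicate 3 differed little, and the log2 fold change was -0.57 ± 0.21 (edgeR adjusted p = 0.275).

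Type IV collagen is encoded by chains whose genes lie head to head in pairs, and its pairs differed in direction. Col4a1 and Col4a2 encode the chains of the common network, and Col4a5 and Col4a6 those of a second network known from the basement membranes of smooth muscle and other tissues. In mouse RefSeq (GRCm38.p6, not the build named for the deposited counts) the windows from 250 bases before to 50 after the starts of Col4a1 and Col4a2 shared 78 bases. Col4a2 starts at base 11312805 on the plus strand and Col4a1 at base 11312826 on the minus strand. The starts were thus 21 bases apart, with the first bases of the 2 genes overlapping. The starts of Col4a5 and Col4a6 lay 1343 bases apart. The windows of these 4 genes are printed because the fold changes of the first pair were positive and those of the second negative. Capitals mark CCAAT and GGGCGG on either strand, whose matches did not overlap.
Col4a1 (chr8:11312777-11313076, minus strand): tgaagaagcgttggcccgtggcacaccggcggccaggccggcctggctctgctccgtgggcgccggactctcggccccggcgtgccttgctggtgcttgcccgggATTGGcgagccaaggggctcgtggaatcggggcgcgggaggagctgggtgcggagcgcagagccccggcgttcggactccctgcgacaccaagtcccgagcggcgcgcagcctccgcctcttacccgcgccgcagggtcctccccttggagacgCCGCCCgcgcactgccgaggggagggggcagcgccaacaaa
Col4a2 (chr8:11312555-11312854, plus strand): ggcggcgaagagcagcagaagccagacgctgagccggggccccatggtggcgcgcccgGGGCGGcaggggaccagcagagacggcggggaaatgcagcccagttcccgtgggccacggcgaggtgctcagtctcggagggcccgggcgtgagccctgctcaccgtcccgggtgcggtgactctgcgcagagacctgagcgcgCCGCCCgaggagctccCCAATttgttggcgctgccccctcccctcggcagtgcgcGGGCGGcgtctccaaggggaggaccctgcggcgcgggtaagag
Col4a5 (chrX:141475169-141475468, plus strand): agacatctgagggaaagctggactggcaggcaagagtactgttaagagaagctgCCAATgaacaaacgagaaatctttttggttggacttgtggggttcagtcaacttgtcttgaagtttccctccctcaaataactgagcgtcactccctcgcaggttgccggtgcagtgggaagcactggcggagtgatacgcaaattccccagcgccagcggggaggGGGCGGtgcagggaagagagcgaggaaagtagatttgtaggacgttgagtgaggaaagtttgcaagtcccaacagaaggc
Col4a6 (chrX:141474027-141474326, minus strand): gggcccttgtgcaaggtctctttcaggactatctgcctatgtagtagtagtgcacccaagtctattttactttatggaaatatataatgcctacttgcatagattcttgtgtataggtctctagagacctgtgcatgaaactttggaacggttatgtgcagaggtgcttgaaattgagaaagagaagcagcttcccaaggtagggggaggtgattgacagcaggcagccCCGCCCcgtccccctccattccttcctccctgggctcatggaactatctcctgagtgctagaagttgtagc
CCAAT was found in the windows of Col4a1, Col4a2 and Col4a5 and in 37.4% of the 32851 windows of the table. GGGCGG was found in all 4 and in 35.7% of the table, and TATAAA in none of the 4 and in 13.6%. Of the 44 chains 35 had a window there, and these matches describe letters, not sites.

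The common type IV chains were measured at high levels. Col4a1 was at 163, 319 and 173 CPM for controls, against 237, 326 and 309 CPM under restraint. Col4a2 was at 115, 207 and 131 CPM and at 161, 233 and 200.4 CPM. For both, control replicates 1 and 3 lay below all stressed samples and control replicate 2 lay within them. Their log2 fold changes were 0.41 ± 0.28 (edgeR adjusted p = 0.459) and 0.39 ± 0.25 (adjusted p = 0.429). With each sample left out in turn they ran from 0.24 to 0.79 and from 0.23 to 0.69, both highest without control replicate 2.

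Col4a5 and Col4a6 stood on the other side. Col4a5 was at 11.6, 15.0 and 19.3 CPM for controls, against 9.98, 5.58 and 7.69 CPM under restraint. Every control exceeded every stressed sample. The log2 fold change was -0.98 ± 0.29 (edgeR adjusted p = 0.235), and DESeq2 called the chain at an adjusted p of 0.0362. Leaving out each sample in turn gave -1.19 to -0.78. Col4a6 was at 3.58, 5.19 and 7.66 CPM for controls, against 2.73, 3.61 and 1.217 CPM under restraint, with stressed replicate 2 just above control replicate 1. Its log2 fold change was -1.12 ± 0.47 (edgeR adjusted p = 0.299; DESeq2 adjusted p = 0.169). The third pair, known from kidney and other specialised basement membranes, was low. Col4a3 was at 0.609 to 1.596 CPM (19 to 50 counts) over all samples, and Col4a4 had 1 to 11 counts per sample.

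All 11 smooth muscle markers of the list used were lower in stressed samples, as Col4a5 and Col4a6 were, each at an unadjusted p under 0.05, with summed values of 5949 to 8173 CPM among controls, against 2684 to 4388 CPM under restraint. At that unadjusted threshold 8.82% of all genes were lower. DESeq2 called 10 of the 11 markers (90.9%, against 5.16% of all genes) and edgeR 0 after adjustment. Their part in the values of these chains was not tested. The sum, Col4a5 and Col4a6 were all highest in control replicate 3, the library with 3040 CPM of squamous markers. Without that library the log2 fold changes were -0.78 ± 0.31 for Col4a5 and -0.80 ± 0.51 for Col4a6. The unadjusted edgeR p of Col4a6 was then 0.170, and the part of squamous tissue was not tested. The sum and Col4a6 were lowest in stressed replicate 3, and Col4a5 in stressed replicate 2.

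The proteoglycan-type basement membrane collagens had positive values, as Col4a1 did. Col18a1, whose cleaved end is endostatin, was at 38.3, 93.1 and 44.8 CPM for controls, against 66.3, 90.5 and 124 CPM under restraint. Col15a1, its relative, was at 15.2, 32.5 and 20.3 CPM and at 30.8, 34.2 and 27.3 CPM. In both the controls reached into the stressed range through replicate 2 alone. The log2 fold changes were 0.67 ± 0.38 (edgeR adjusted p = 0.396) and 0.44 ± 0.27 (adjusted p = 0.428). With single samples left out they ran from 0.42 to 1.17 and from 0.22 to 0.79, both highest without control replicate 2. The summed endothelial markers had the same order among controls, with 144, 311 and 189 CPM, and were at 211, 250.2 and 259 CPM under restraint. Their part was not tested.

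**Figure D3:**
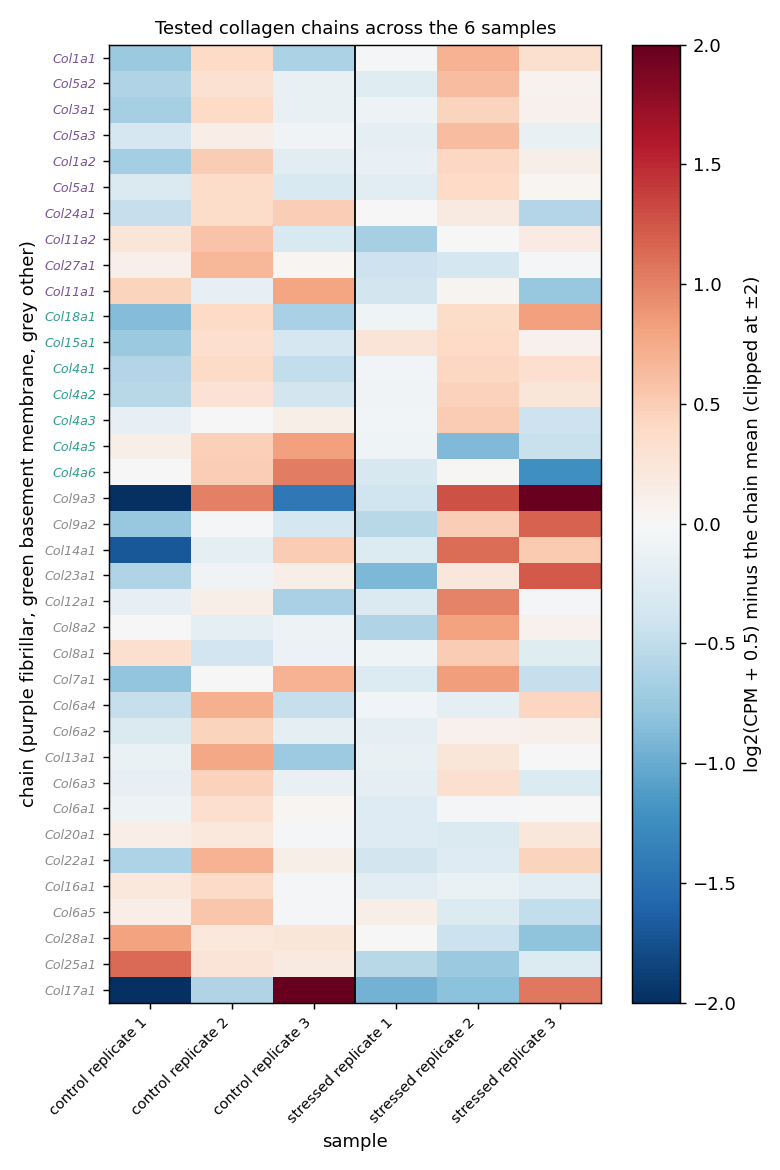
Log2(CPM + 0.5) of the 37 tested chains, centred on each chain's mean over the 6 samples (rows, by class) and shown by sample (columns). Control replicate 1 is below the mean for the abundant fibrillar and basement membrane chains, control replicate 2 and stressed replicate 2 are above it, and Col4a5 and Col4a6 are below the mean in stressed replicates 1 and 3.

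Of the 14 chains of at least 5 FPKM, 10 were lowest by CPM in control replicate 1, 7 were highest in stressed replicate 2 and 5 in control replicate 2. Their coefficient of variation was larger among controls than among stressed samples for 13 of the 14. It ran from 14.7% to 122.9% in controls and from 3.51% to 68.4% in stressed samples, and was largest for Col9a3 in both groups. All collagen chains together held 0.146%, 0.300% and 0.194% of the counts for controls, against 0.203%, 0.298% and 0.266% under restraint. These shares overlapped between groups.

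Pairs of chains were compared as ratios of FPKM within each sample, which removes differences in total collagen between samples. Col1a1 to Col3a1 and Col1a1 to Col4a1 set chains of different collagen types side by side, and the other pairs are partners of one type. The Col1a1 to Col1a2 ratio was 0.539, 0.525 and 0.417 for controls, against 0.612, 0.684 and 0.648 under restraint. Every stressed sample exceeded every control, and the mean log2 ratio was 0.40 higher. The Col1a1 to Col3a1 ratio was likewise higher in each stressed sample, at 0.332 to 0.375 against 0.223 to 0.318, a log2 difference of 0.38. For both ratios the two-sided exact permutation p was 0.1, the smallest that 3 samples against 3 allow, and 0.3 after Benjamini-Hochberg adjustment over the 6 ratios compared. Col4a1 to Col4a2 held between 1.29 and 1.496 in all 6 samples, with a log2 difference of 0.04 (exact p = 0.6). The ratios of Col5a1 to Col5a2, Col6a1 to Col6a2 and Col1a1 to Col4a1 overlapped between groups, with log2 differences of -0.14, -0.20 and 0.19 (exact p = 0.4, 0.2 and 0.3).

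**Figure D4:**
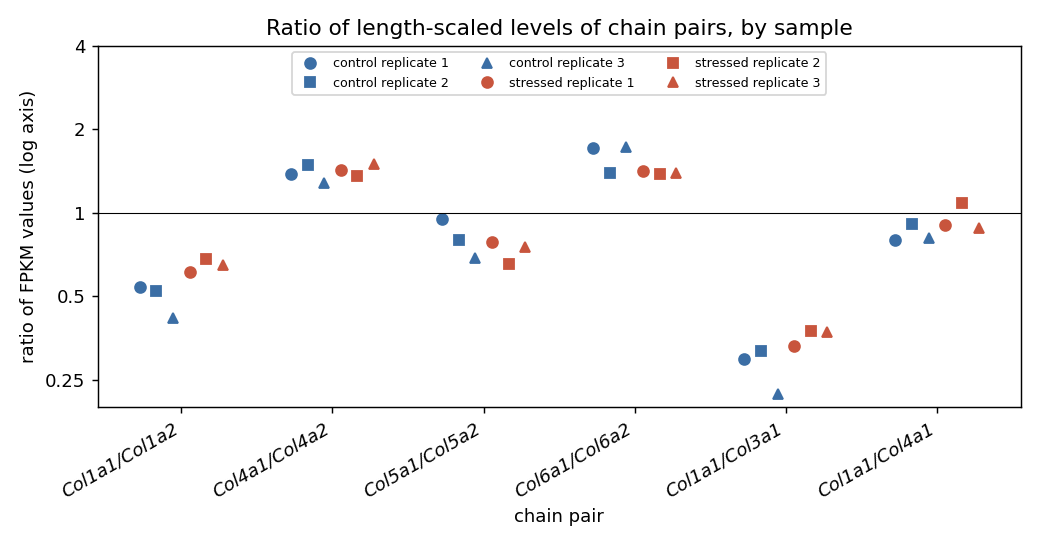
Ratio of FPKM values (log axis) for 6 pairs of chains, one point per sample. The Col1a1/Col1a2 and Col1a1/Col3a1 points of stressed samples (red) lie above those of controls (blue), and the other 4 pairs overlap.

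Among the other collagens, type VI, which forms beaded filaments around cells, was the most abundant and had values near 0. Col6a1 was at 109.5, 148 and 120.3 CPM for controls, against 98.1, 115 and 118 CPM under restraint. The log2 fold change was -0.19 ± 0.14 (edgeR adjusted p = 0.493), and the groups overlapped. Col6a2 and Col6a3 had -0.02 ± 0.20 and -0.11 ± 0.23, and both changed sign without control replicate 2 (0.24 and 0.13). The more recently described chains Col6a4 and Col6a5 had 0.05 ± 0.36 and -0.47 ± 0.29.

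FACIT collagens, which sit on the surface of fibrils, held chains on both sides. Col16a1 was at 50.9, 57.9 and 43.0 CPM for controls, against 38.0, 40.1 and 37.6 CPM under restraint. The stressed values were close together and all below the controls, and the log2 fold change was -0.39 ± 0.13 (edgeR adjusted p = 0.254). Col9a3, a type IX chain best known from cartilage, was at 1.95, 26.3 and 4.44 CPM for controls, against 9.59, 31.5 and 52.0 CPM under restraint. Control replicate 2 lay among the stressed samples, and the log2 fold change was 1.51 ± 1.04 (adjusted p = 0.470). It ran from 0.92 to 3.27 when single samples were left out, and was highest without control replicate 2. Col9a2, the partner of Col9a3, was at 4.13, 7.22 and 5.66 CPM and at 4.84, 10.5 and 17.3 CPM, a log2 fold change of 0.94 ± 0.47 (adjusted p = 0.347). DESeq2 gave Col9a2 an unadjusted p of 0.0465 (adjusted p = 0.241). All 3 type IX chains had their highest value in stressed replicate 3.

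Col12a1 and Col14a1, FACIT chains of fibroblasts, had log2 fold changes of 0.54 ± 0.37 and 0.83 ± 0.67. Each was highest in stressed replicate 2, at 95.2 CPM for Col12a1 (30.2 to 51.7 CPM in the other 5 samples) and 10.5 CPM for Col14a1. Without that library the Col12a1 value was 0.05. Col20a1 had -0.20 ± 0.24 and Col22a1 -0.25 ± 0.60. The short-chain collagens of type VIII, known from vessel walls, had 0.15 ± 0.35 for Col8a1 and 0.47 ± 0.60 for Col8a2.

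Of the transmembrane collagens, Col25a1, found on neurons and developing muscle, had the largest difference among the 6 chains of small p. It was at 2.87, 1.33 and 1.25 CPM for controls, against 0.551, 0.415 and 0.769 CPM under restraint. All controls lay above all stressed samples, at 37 to 78 against 13 to 24 counts, and the log2 fold change was -1.64 ± 0.50 (edgeR adjusted p = 0.239; DESeq2 adjusted p = 0.0725). Col28a1, known from basement membranes around peripheral glia, was at 5.60, 3.54 and 3.62 CPM and at 2.97, 2.11 and 1.51 CPM. Its groups did not overlap either, and its log2 fold change was -0.95 ± 0.37 (edgeR adjusted p = 0.279). Of 10 enteric neuron and glia markers 9 were lower at an unadjusted p under 0.05 (90%, against 8.82% of all genes). The 10 markers summed to 103 to 179 CPM among controls, against 67.4 to 84.2 CPM under restraint. This sum was highest in control replicate 1, as were Col25a1 and Col28a1. The sum and Col25a1 were lowest in stressed replicate 2. Col28a1 was lowest in stressed replicate 3, where the sum had its highest stressed value, 84.2 CPM. The part of these markers in the values of both chains was not tested. DESeq2 called 8 of these markers (80%, against 5.16% of all genes) and edgeR 0 after adjustment.

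**Figure D5:**
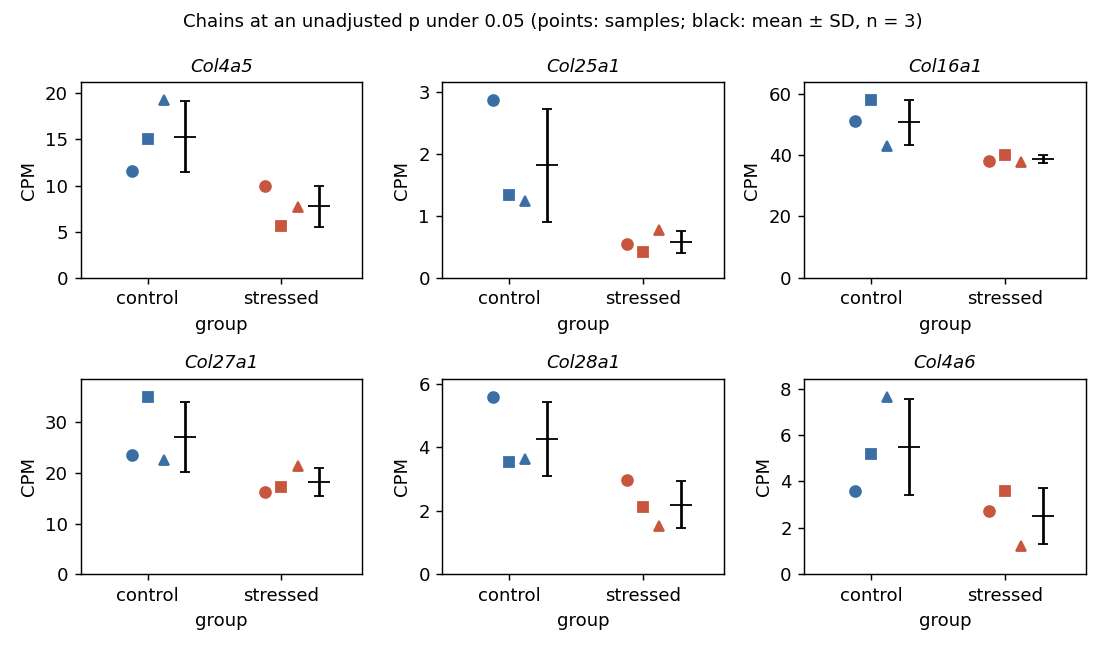
CPM by sample of the 6 chains at an unadjusted p under 0.05, ordered by p (symbols: replicate 1 circle, 2 square, 3 triangle), with the mean ± SD of each group (n = 3). Groups do not overlap for 5 of them, and for Col4a6 stressed replicate 2 at 3.61 CPM lies above control replicate 1 at 3.58 CPM.

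Among collagens of squamous epithelium, 1 chain had a library that stood apart. Col17a1, the hemidesmosome collagen of basal keratinocytes, was at 0.184, 2.16 and 57.7 CPM for controls, against 1.59, 1.79 and 7.85 CPM under restraint. The library with the high value was the one with squamous markers, where Krt5, a keratin of basal squamous cells, was at 889.9 CPM against at most 0.67 CPM elsewhere. The log2 fold change of Col17a1 was -2.42 ± 1.75 with all samples and 1.66 without control replicate 3. Col7a1, which forms the anchoring fibrils under squamous epithelium, was at 22.7 CPM in that library but at 25.02 CPM in stressed replicate 2, and had 0.07 ± 0.49 (0.52 without control replicate 3). The remaining transmembrane chains, Col13a1 and Col23a1, had -0.07 ± 0.50 and 0.63 ± 0.57, and Col23a1 reached 12.04 CPM in stressed replicate 3 against 2.39 to 5.78 CPM elsewhere.

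Collagen-modifying enzymes gave few differences. Of 18 genes that fold, hydroxylate and glycosylate collagen in the endoplasmic reticulum, 1 was higher and 0 lower at an unadjusted p under 0.05 (5.56%, against 16.6% of all genes), and the list's median log2 fold change was 0.05. That gene was Colgalt1, which adds galactose to hydroxylysine, at 94.2 ± 16.0 CPM for controls, against 129 ± 16.3 CPM under restraint (log2 fold change 0.46 ± 0.16, edgeR adjusted p = 0.259). P4hb, a subunit of prolyl hydroxylase, had 0.23 ± 0.12. Plod2, a lysyl hydroxylase, and P3h2, a prolyl hydroxylase acting on type IV collagen, had -0.59 ± 0.26 and -0.85 ± 0.42. Of the 13 tested genes that trim or cross-link collagen outside the cell, 0 reached that threshold in edgeR or limma-voom and DESeq2 called 0, with 10 positive values and a median of 0.36. Lox, the lysyl oxidase that cross-links fibrils, was at 9.69, 19.7 and 11.8 CPM for controls, against 14.8, 34.1 and 23.0 CPM under restraint (0.81 ± 0.37, adjusted p = 0.327), lowest and highest in the same libraries as Col1a1.

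Collagen receptors had values in both directions. Of 9 tested, 2 were higher and 3 lower at an unadjusted p under 0.05, none passed the adjusted threshold in edgeR, and DESeq2 called 2. These are 55.6% and 22.2% of the list, against 16.6% and 5.16% of all genes. Ddr1, the discoidin receptor of epithelia, was at 143, 149 and 134 CPM for controls, against 190.1, 216 and 215 CPM under restraint (log2 fold change 0.54 ± 0.10, edgeR adjusted p = 0.191, DESeq2 adjusted p = 7.1e-04). Ddr2, its counterpart on mesenchymal cells, was at 40.2, 46.4 and 50.6 CPM and at 27.8, 32.3 and 20.6 CPM (-0.77 ± 0.18, adjusted p = 0.195, DESeq2 adjusted p = 0.014). Groups did not overlap for either. The integrin chains Itga1 and Itga10, which bind type IV and fibrillar collagens among others, had -0.63 ± 0.20 and -0.95 ± 0.30.

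Laminins and the other non-collagen parts of basement membranes had positive values for 13 of 15 genes and a median log2 fold change of 0.32, with 3 higher and 1 lower at an unadjusted p under 0.05 (26.7%, against 16.6% of all genes). Lamb3 and Lama5, chains of epithelial laminins, were among the higher genes. Lamb3 was at 165, 182 and 193 CPM for controls, against 247, 282 and 237 CPM under restraint (0.51 ± 0.12, edgeR adjusted p = 0.191), and DESeq2 called it (adjusted p = 0.00664). Lama5 had 0.89 ± 0.37. The lower gene was Lamc3 (-1.12 ± 0.43).

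In the TGF-beta list, whose ligands are the best-known inducers of fibrillar collagen, 1 of 13 genes was higher and 1 lower at an unadjusted p under 0.05 (15.4%, against 16.6% of all genes, median 0.13). Tgfb2 was at 18.4, 11.003 and 9.03 CPM for controls, against 4.04, 7.21 and 5.38 CPM under restraint. Its groups did not overlap, its log2 fold change was -1.21 ± 0.35 (edgeR adjusted p = 0.232), and DESeq2 called it (adjusted p = 0.0287). The receptor Tgfbr2 had 0.30 ± 0.12 and the co-receptor Tgfbr3 -0.56 ± 0.25.

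Markers of other cell types gave the setting of these values. Of 10 fibroblast markers 1 was higher and 2 lower at an unadjusted p under 0.05, where 7.82% of all genes were higher and 8.82% lower. The 10 markers summed to 699 to 952 CPM among controls, against 578 to 804 CPM under restraint. The median log2 fold change of the list was -0.20, with 4 positive and 6 negative values. Pi16 was the higher gene (2.87 ± 0.87, DESeq2 adjusted p = 0.0245), at a mean of 0.386 CPM in controls and 2.88 CPM under restraint. Dpt (-0.73 ± 0.25) and Lum (-0.70 ± 0.27) were the lower genes. Pdgfra, a general fibroblast marker, had 0.11 ± 0.20. Of 7 pericyte markers 2 were lower and 0 higher at that threshold. DESeq2 called 1 of the 7 (14.3%, against 5.16% of all genes), which was Abcc9, lower at an adjusted p of 0.00879. Of 10 endothelial markers 0 had an unadjusted p under 0.05 in edgeR, 1 did in limma-voom and DESeq2 called 0. Of the remaining lists, 1 of 9 tested squamous markers, 1 of 6 B cell markers and 0 of 5 skeletal muscle markers were lower at that threshold. Among 9 colon epithelial and 3 tested adipocyte and mesothelium markers, 1 of each was higher.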

How the data were processed

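RNA-seq of colon tissue was analysed from 3 control and 3 stressed samples. Whole-number counts and FPKM values for each gene and sample stand in 1 table that the authors deposited, per the file headers. For the build GRCm39 the submitters' processing notes list, with no roles, HISAT2 2.1.0 and StringTie 1.3.4d, featureCounts 1.6.2, fastp 0.19.3, edgeR 3.24.3 and DESeq2 1.22.1. Strand setting: not given in the sources used here; reads of overlapping genes may be mixed.

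The low-count filter was filterByExpr and the scaling TMM. Groups were compared by the robust quasi-likelihood test in edgeR 4.0.16 (R 4.3.3), and p-values were adjusted by Benjamini-Hochberg across the 15890 genes that passed. SEs were obtained from log2 fold changes and their F statistics. CPM values are TMM-scaled. FPKM served for levels between chains and for ratios. Alternatives were DESeq2 1.42.0, limma-voom (limma 3.58.1), other scalings, no filter and leaving out each sample. Replicate numbers follow accession order and pair nothing. Every chain could be named, and up to 4 genes of smallest p in each pathway list; some of these are not reported here, and marker genes besides were chosen after their values were seen. Ccn2 of the TGF-beta list was matched under its older symbol. Members and lists were chosen with earlier results of these data known. Promoter windows are from RefSeq (GRCm38.p6).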

Additional observations from a re-analysis of the deposited data

How the results depend on the processing

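The count of genes past an adjusted p of 0.05 was 0 in edgeR under each scaling, filter and left-out sample and in limma-voom, and 818 in DESeq2; for collagen chains it was 0 and, in DESeq2, 1, which was Col4a5 at a log2 fold change of -0.98. The cause of the difference between tools was not tested. With no low-count filter 8 chains had an unadjusted p under 0.05, of which 2 were higher, and in DESeq2 7 did, of which 1 was higher. Chains at that threshold numbered 3 to 12 when single samples were left out, and the median of the other collagens then ran from -0.20 to 0.19, the highest without control replicate 2. Of the 37 chains 23 kept their direction under all 12 alternatives. The other 14 changed sign when a sample was left out, with log2 fold changes of Col13a1 from -0.42 to 0.57, Col17a1 from -3.56 to 1.66, Col1a2 from -0.052 to 0.57, Col22a1 from -0.72 to 0.29, Col23a1 from -0.083 to 1.05, Col4a3 from -0.33 to 0.39, Col5a1 from -0.032 to 0.40, Col5a3 from -0.088 to 0.37, Col6a2 from -0.15 to 0.24, Col6a3 from -0.31 to 0.13, Col6a4 from -0.15 to 0.57, Col7a1 from -0.47 to 0.52, Col8a1 from -0.15 to 0.39 and Col8a2 from -0.20 to 0.88. Col6a2 was also positive by library size only (0.022) and in limma-voom (0.015), and Col13a1 in limma-voom (0.14). The log2 difference of the Col4a1 to Col4a2 ratio ran from -0.011 to 0.098, and the other ratios kept their direction without each sample and from raw counts. No paired analysis was possible because the labels give no pairing of control and stressed samples. Depth limits the 7 chains that did not pass the low-count filter, which had at most 50 counts in a sample.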
